A study of Drosophila melanogaster with 9 samples.

Results

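Old Ey+ and middle Grh+ intermediate neural progenitors (INPs) of the Drosophila larval brain were compared across genes in 6 of the 9 RNA-seq libraries of the series, 3 from Ey+ INPs and 3 from Grh+ INPs, taken by their labelled temporal state. The other 3 libraries were made from young D+ INPs, carry another flow cell code, and appear below only as levels. Ey+ INPs came from larvae that carried UAS-cd8::tdTomato driven by erm-GAL4 together with Ey::GFP, and Grh+ INPs from larvae with the same driver and membrane marker together with Grh::GFP. Both fusions are BAC insertions, so that Ey+ larvae had an extra copy of ey and Grh+ larvae an extra copy of grh, whereas the D::GFP of D+ larvae was knocked into its own locus. The labels call all flies wild-type. Eggs were laid at 25 °C, larvae were reared at 29 °C, and brains were taken from wandering last-instar larvae. Between 6000 and 7000 cells per library were sorted as the largest cells with the highest tdTomato and GFP signals. The labels do not say that the 3 libraries of a state came from separate animals or sorts, so p-values measure the spread between these libraries.

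Type II neuroblasts of the fly brain do not make neurons directly but bud off INPs, transit-amplifying progenitors that divide several times and produce ganglion mother cells, neurons and glia. As an INP ages it expresses the transcription factors Dichaete (D), Grainyhead (Grh) and Eyeless (Ey) in turn, and INPs of different age produce different progeny. The chromatin remodeler subunit Osa and the transcription factors Hamlet (ham) and Odd-paired (opa) act in the switches between these states. The question of the comparison is which other genes differ between the last 2 states.

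Counts on genes ranged from 17447619 to 21765319 in Ey+ libraries and from 11266164 to 20745561 in Grh+ libraries, and 11659 to 14330 genes had a count in Ey+ libraries against 11625 to 15568 in Grh+ libraries. Of the 6 libraries, Ey+ replicate 1 and Grh+ replicate 2 stood apart from the others of their state. In Ey+ replicate 1, 1333 of the 9475 genes tested lay over 2-fold above the mean of the other Ey+ libraries, against 153 and 126 genes in Ey+ replicates 2 and 3. In Grh+ replicate 2, 1376 genes lay over 2-fold above the mean of the other Grh+ libraries, against 41 and 19 genes in Grh+ replicates 1 and 3. Of these genes, 626 were shared by both libraries, 47.0% of the genes of Ey+ replicate 1 and 45.5% of those of Grh+ replicate 2. These 2 libraries also had the largest share of counts in the summary lines, which are not assigned to a gene, 49.0% and 53.2%, against 34.7% to 39.5% in the other 4. Alignments that were not unique made up most of them, 36.4% and 39.5% of all counts, against 22.9% to 27.6% in the other 4. The correlation of log2 levels over genes was 0.945 to 0.982 among Ey+ libraries, 0.964 to 0.989 among Grh+ libraries and 0.926 to 0.981 between libraries of different states. Levels are given in RPM, a gene's reads scaled to the same total of reads on genes in every library, which is not divided by transcript length and therefore sets libraries, not genes, side by side.

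More genes were called lower than higher in Ey+ INPs relative to Grh+ INPs, by a margin that depended on the model. A gene was called changed when edgeR's quasi-likelihood test gave a Benjamini-Hochberg adjusted p under 0.05 over all genes tested, when it differed more than 2-fold and when its mean was above 10 RPM in Ey+ or Grh+ INPs. By this rule 128 of 9475 genes (1.35%) changed, of which 22 (0.232% of genes tested) were higher in Ey+ INPs and 106 (1.12%) were lower, so that 17.2% of calls were higher. DESeq2 without a prior called 130 higher and 171 lower genes (43.2% higher), removal of each library's exon length trend gave 58 and 119 (32.8% higher), and a replicate block left 4 and 4. The median change was 3.81-fold among the higher genes and 3.70-fold among the lower ones, and 10 higher and 45 lower genes changed more than 4-fold. The higher genes had a median of 108 RPM in Ey+ INPs and 17.1 RPM in Grh+ INPs. The lower genes had a median of 4.34 RPM in Ey+ INPs and 19.0 RPM in Grh+ INPs. Protein-coding genes made up 19 of the higher and 103 of the lower genes. In RNA from sorted pools, fewer cells that express a gene and less of its RNA per cell cannot be told apart.

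For every one of the 128 changed genes, the 3 Ey+ libraries and the 3 Grh+ libraries did not overlap in RPM. Over all genes tested, 2294 (24.2%) did not overlap either, 173 with Ey+ INPs above and 2121 with Ey+ INPs below. This split depends on scaling, since RPM scaled by TMM factors gave 734 genes with Ey+ INPs above and 1223 below. The median log2 fold change of all genes was -0.02 with TMM scaling, -0.27 with library size only and -0.13 with upper-quartile scaling. Ey+ replicate 1 had the lowest TMM factor, 0.738, against 0.980 to 1.11 in the other 5 libraries, so its RPM values lie below the levels that the fit compares. All 128 genes kept their direction when any library was left out, but the calls rested on particular libraries. Without Grh+ replicate 1, edgeR called 0 genes (976 genes at an unadjusted p under 0.05, and DESeq2 was not run without a library), and without Ey+ replicate 2 it called 0 higher and 3 lower genes. Without Grh+ replicate 2 the counts were 6 and 12, without Grh+ replicate 3 they were 6 and 28, without Ey+ replicate 1 they were 23 and 113, and without Ey+ replicate 3 they were 24 and 63. Of the 40 changed genes named below by rule, none kept its call without Grh+ replicate 1, and 38, 30, 21, 12 and 4 lost it without Ey+ replicate 2, Grh+ replicate 2, Grh+ replicate 3, Ey+ replicate 3 and Ey+ replicate 1. With both Ey+ replicate 1 and Grh+ replicate 2 left out, 35 genes were higher and 139 lower, and 21 of the 22 higher and 90 of the 106 lower genes were called again.

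**Figure D1:**
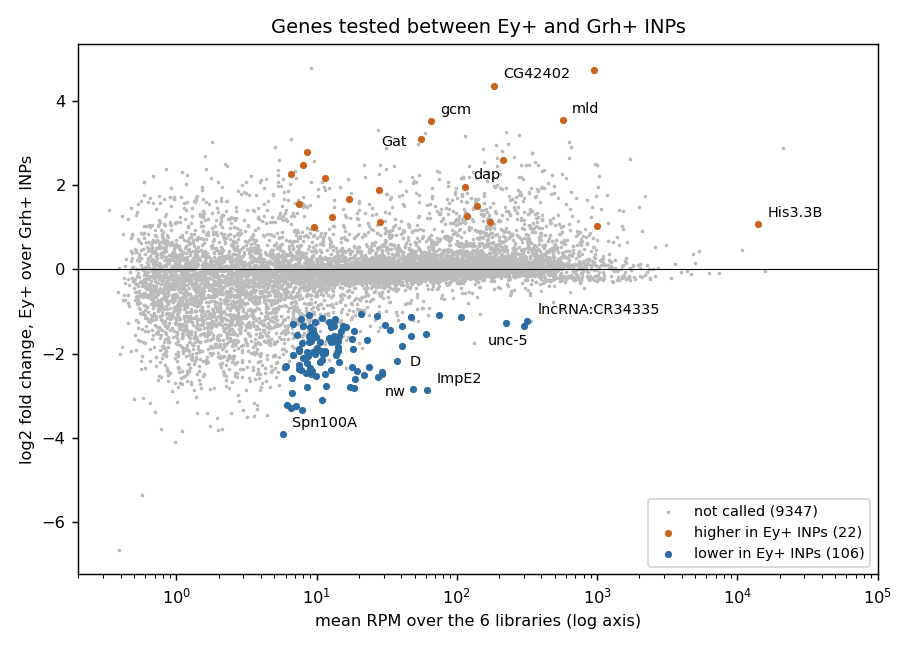
Log2 fold change, Ey+ over Grh+ INPs, against the mean RPM of the 6 libraries (log axis) for the 9475 genes tested. Orange points are the 22 genes called higher in Ey+ INPs and blue points the 106 called lower; most blue points sit at low RPM, while several orange points lie above 100 RPM.

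Of the temporal factors D, grh and ey, D alone was called. D (3L, 14175610 to 14178620, minus strand; all positions are on the Release 6 assembly) encodes the SoxB-type factor of young INPs. It had 14.5, 14 and 17.5 RPM in the Ey+ libraries against 52.0, 65.1 and 80.5 RPM in the Grh+ libraries. D fell in every Ey+ library relative to every Grh+ library, with a log2 fold change of -1.82 ± 0.20 (SE, n = 3 libraries per state; edgeR adjusted p = 0.013), and its mean in D+ INPs was 339 RPM.

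grh, which encodes the CP2-family factor of middle INPs, had 382, 312 and 224 RPM in the Ey+ libraries against 579, 838 and 574 RPM in the Grh+ libraries. The libraries did not overlap, but the difference did not pass the test (log2 fold change -0.78 ± 0.34, edgeR adjusted p = 0.323). Exact permutation of the libraries (two-sided, on mean RPM) gave p = 0.1, the smallest that 3 against 3 allow. Without both libraries that stood apart the value was -0.98 (edgeR adjusted p = 0.0533, and between 0.0216 and 0.691 over 18 alternative settings, none of which called it). ey, which encodes the Pax6-type factor of old INPs, had 562, 685 and 653 RPM in the Ey+ libraries against 633, 481 and 585 RPM in the Grh+ libraries. Its libraries overlapped, and neither edgeR (log2 fold change 0.44 ± 0.16, adjusted p = 0.252) nor the exact permutation test (p = 0.4) told the states apart. ey averaged 633 ± 63.9 RPM in Ey+ INPs and 566 ± 77.8 RPM in Grh+ INPs (SD, n = 3 each), while its D+ mean was 12.8 RPM. Reads of the GFP-tagged copies and of the endogenous genes cannot be told apart in these counts.

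Among the switch genes, opa differed and ham and osa did not pass the test. opa, a Zic-type zinc finger factor, had 416, 517 and 475 RPM in the Ey+ libraries against 302, 336 and 291 RPM in the Grh+ libraries. All Ey+ libraries were above all Grh+ libraries, and the log2 fold change of 0.88 ± 0.14 had an edgeR adjusted p of 0.035, but it was under the fold threshold, so opa is not counted as changed. osa, which encodes a subunit of the SWI/SNF remodeler, had 1671, 1634 and 1450.4 RPM in Ey+ libraries against 1309.6, 1385 and 1216 RPM in Grh+ libraries (log2 fold change 0.59 ± 0.20, edgeR adjusted p = 0.23). ham had 712, 813 and 661 RPM in Ey+ libraries and 719, 896 and 803 RPM in Grh+ libraries, with overlapping libraries and a log2 fold change of 0.15 ± 0.19 (edgeR adjusted p = 0.785). Its sign depended on scaling and was negative with library size only.

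**Figure D2:**
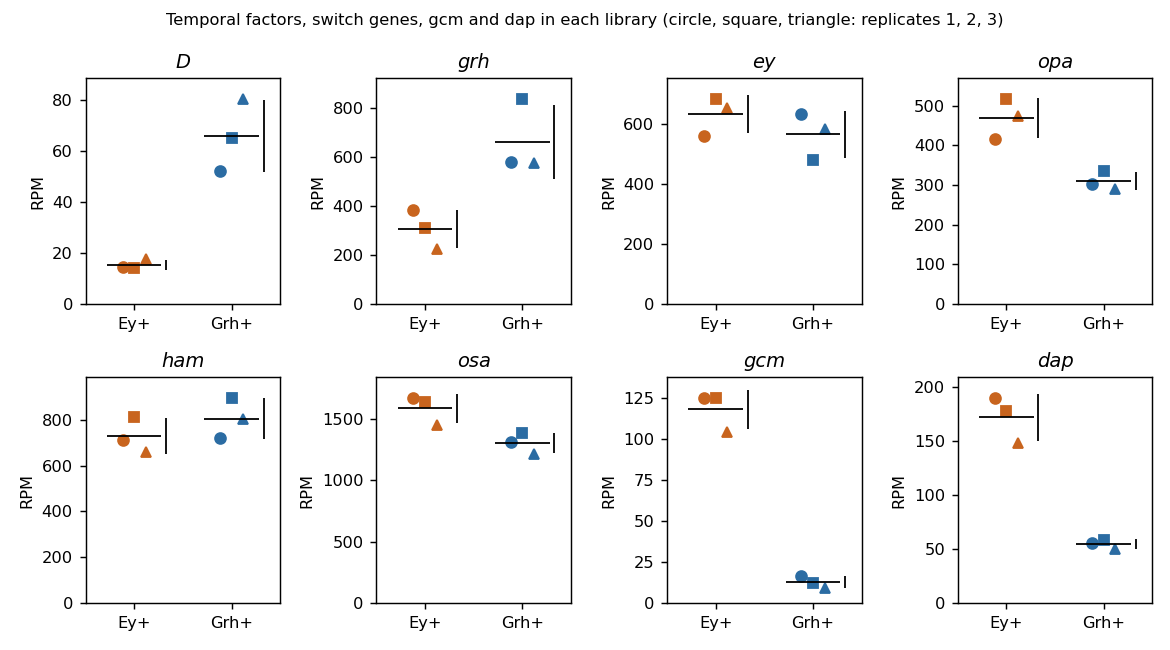
RPM of the temporal factors D, grh and ey, the switch genes opa, ham and osa, and gcm and dap in each Ey+ library (left, orange) and Grh+ library (right, blue); circles, squares and triangles are replicates 1, 2 and 3, horizontal bars are means and vertical bars are the SD (n = 3). D, grh, opa, osa, gcm and dap do not overlap between states, whereas ey and ham do.

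The higher genes included a fate factor and a cell cycle inhibitor. gcm (2L, 9579498 to 9581745, minus strand), which encodes the transcription factor glial cells missing that starts glial development in fly embryos, had 125, 125 and 104 RPM in the Ey+ libraries against 16.7, 12.1 and 9.29 RPM in the Grh+ libraries. The means were 118 ± 11.7 RPM in Ey+ INPs and 12.7 ± 3.74 RPM in Grh+ INPs (SD, n = 3 each), and 1.81 RPM in D+ INPs. gcm rose by 3.53 ± 0.29 on the log2 scale (edgeR adjusted p = 0.00998), and by 3.27 without both libraries that stood apart. It shares 128 exonic bases with CG31709 on the same strand. dap (2R, 9712321 to 9716256, plus strand) encodes Dacapo, a CDK inhibitor of the p21/p27 type that stops the cell cycle before S phase. It had 190.3, 178 and 148 RPM in the Ey+ libraries against 55.5, 58.9 and 50.1 RPM in the Grh+ libraries. dap rose by 1.96 ± 0.23 on the log2 scale (edgeR adjusted p = 0.0167), and it was at 36 RPM in D+ INPs.

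The other genes with the largest rises encode proteins of several kinds. CG42402 (3R, 4077939 to 4104326) had 565, 303 and 170.3 RPM in Ey+ libraries against 20.3, 32.4 and 13.3 RPM in Grh+ libraries, a log2 fold change of 4.36 ± 0.67 (edgeR adjusted p = 0.0344). mld (3R, 24585653 to 24623899), a zinc finger gene needed for ecdysone synthesis in the prothoracic gland, had 1134, 1135 and 816 RPM in Ey+ libraries against 114, 124 and 92.2 RPM in Grh+ libraries. Its log2 fold change was 3.54 ± 0.29 (edgeR adjusted p = 0.00998), and Syx18 shares 98 bases with it on the other strand, where unstranded counts cannot tell the genes apart. Both genes were higher in every Ey+ library than in any Grh+ library. Gat (4, 629691 to 635350), the GABA transporter, had 109.5, 102 and 79.2 RPM in Ey+ libraries against 9.94, 18.1 and 14.3 RPM in Grh+ libraries (log2 fold change 3.09 ± 0.32, edgeR adjusted p = 0.0125), and it shares 289 exonic bases with an annotated transposon copy. Lmx1a (3L, 12329232 to 12335901), a LIM homeodomain factor, had 14.8, 16 and 12.9 RPM in Ey+ libraries against 1.42, 3.66 and 2.62 RPM in Grh+ libraries (log2 fold change 2.78 ± 0.37, edgeR adjusted p = 0.025). Lmx1a had a count of 0 in all 3 D+ libraries, so that of the 3 states it was highest in Ey+ INPs.

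The genes cry, krimp, Ect3 and lncRNA:CR44042, which complete the 12 largest rises with 2 unannotated identifiers, also rose. cry, which encodes the blue-light receptor cryptochrome, had 11.5, 17.5 and 10.7 RPM in Ey+ libraries against 2.13, 3.23 and 3.16 RPM in Grh+ libraries (log2 fold change 2.49), and shares 329 exonic bases with lncRNA:CR46393 on the same strand and 9 with vib on the other. krimp, a Tudor-domain gene of the piRNA pathway, had 30.8, 45.3 and 51.0 RPM against 10.7, 17.1 and 12.7 RPM in Grh+ libraries (log2 fold change 1.89). Ect3 and lncRNA:CR44042 had means of 10.4 and 18.2 RPM in Ey+ INPs against 2.63 and 4.91 RPM in Grh+ INPs. The edgeR adjusted p of these 4 genes lay between 0.0125 and 0.0445. The 2 identifiers FBgn0028993 and FBgn0001981, which the annotation used here does not name, rose by 4.74 and 2.59 on the log2 scale. FBgn0028993 had 2291, 1834 and 1316 RPM in Ey+ libraries against 77.2, 103 and 77.1 RPM in Grh+ libraries, the largest rise of all changed genes (edgeR adjusted p = 0.00998).

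His3.3B and gw, named for their mean RPM over the 6 libraries, both rose about 2-fold. His3.3B (X, 9152523 to 9156669), one of the genes for the replacement histone H3.3, had 15535, 19053 and 19283 RPM in Ey+ libraries against 10064, 11232 and 9419.9 RPM in Grh+ libraries. It rose by 1.08 ± 0.11 on the log2 scale (edgeR adjusted p = 0.0125), and its D+ mean was 2889.8 RPM. gw (4, 649041 to 660608), which encodes the GW182 protein of miRNA silencing, had 1249, 1344 and 1134 RPM against 734, 712 and 813 RPM in Grh+ libraries. Its log2 fold change of 1.02 ± 0.18 (edgeR adjusted p = 0.0469) was 0.80 without both libraries that stood apart, which is under the fold threshold. Of the other higher genes, chosen here after their values were seen, the zinc finger gene sna had 123, 173 and 182 RPM in Ey+ libraries against 69.4, 88.1 and 78.1 RPM in Grh+ libraries, and the Runx gene run had 190.0, 248 and 226 RPM against 110.1, 141 and 114 RPM. Their log2 fold changes were 1.28 and 1.14, with edgeR adjusted p of 0.0125 and 0.0216. Of the 22 higher genes, 21 had an Ey+ mean above the D+ mean, and 18 also had a Grh+ mean above it. These genes were picked for higher levels in Ey+ INPs, so the first count is partly fixed by that choice. The share over all genes tested is not given here, and D+ libraries carry another flow cell code.

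**Figure D3:**
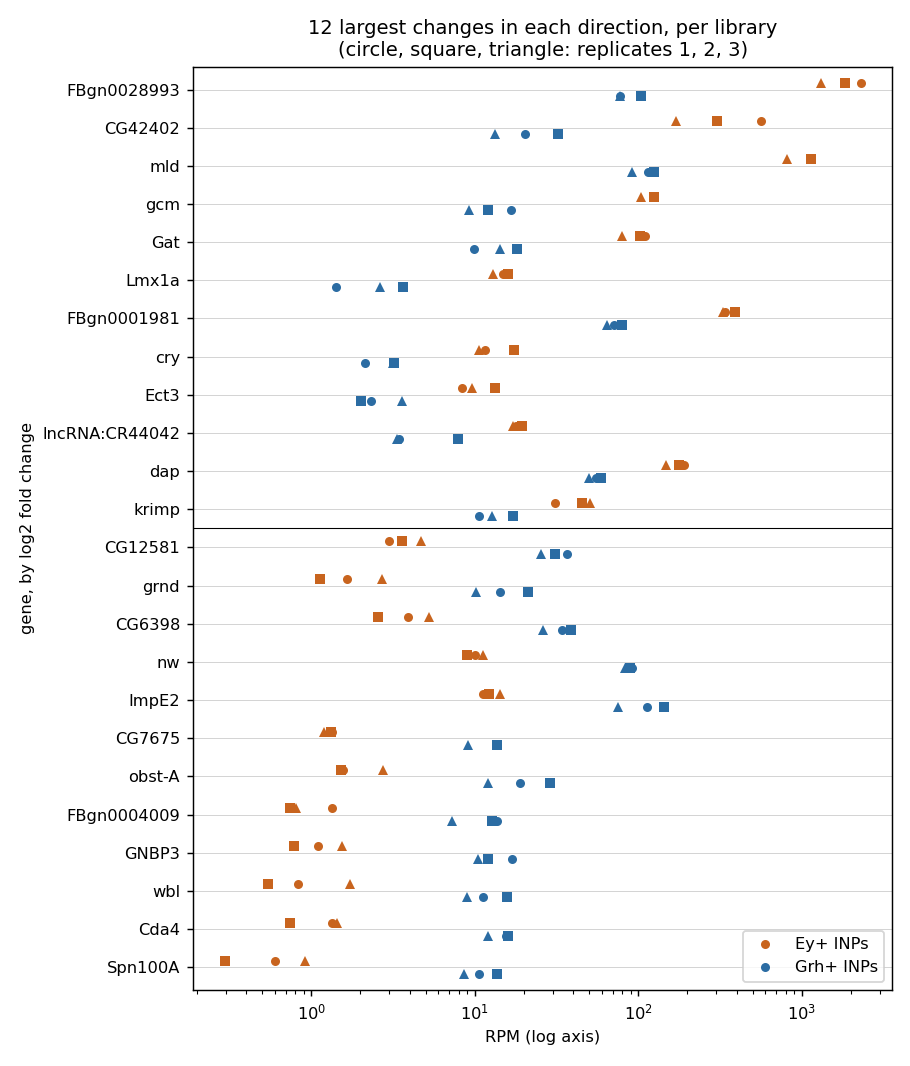
RPM (log axis) in each Ey+ library (orange) and Grh+ library (blue) for the 12 changed genes with the largest positive and the 12 with the largest negative log2 fold change; circles, squares and triangles are replicates 1, 2 and 3. The genes above the line are higher in Ey+ INPs, with CG42402 spread widest among the Ey+ libraries, and those under it include many at about 1 RPM in Ey+ INPs.

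Many of the steepest falls were of genes near 1 RPM in Ey+ INPs. Spn100A (3R, 30690642 to 30692768), a serpin, had 0.597, 0.295 and 0.917 RPM in Ey+ libraries against 10.7, 13.7 and 8.62 RPM in Grh+ libraries. It fell by 3.90 ± 0.45 on the log2 scale (edgeR adjusted p = 0.0162), the steepest fall of the changed genes. nw (2R, 17502354 to 17508645), a C-type lectin gene, had 10.1, 8.95 and 11.2 RPM in Ey+ libraries against 91.3, 89.1 and 82.7 RPM in Grh+ libraries. It fell by 2.83 ± 0.17 (edgeR adjusted p = 0.00523), and of 18 alternative settings its call was lost only without Grh+ replicate 1, with log2 fold changes between -3.12 and -2.52. The genes wbl, GNBP3, CG7675, CG6398, grnd and CG12581 and the unannotated FBgn0004009 completed the 12 largest falls beside the chitin genes below, with log2 fold changes between -3.29 and -2.79 and edgeR adjusted p between 0.00888 and 0.0332. GNBP3 encodes a recognition protein for fungal glucans and grnd a receptor of the TNF family. CG6398 shares 267 bases with lncRNA:CR44691 and grnd shares 275 bases with kon on the other strand. Of the 106 lower genes, 97 had a Grh+ mean above the D+ mean and 35 had an Ey+ mean above it. These genes were picked for higher levels in Grh+ INPs, so the first count is partly fixed by that choice. The share over all genes tested is not given here, and D+ libraries carry another flow cell code.

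Of a list of chitin and apical matrix genes, 7 of 18 tested members fell and none rose, against 1.12% of all genes tested that fell. This list, like the others, was chosen with earlier results of these data known, so the count describes the list and tests nothing. The epidermis and tracheae of insects line their apical surface with chitin, which chitin deacetylases modify, and with zona pellucida (ZP) proteins. verm (3L, 19690033 to 19695260) and serp (3L, 19700977 to 19708015), neighbouring genes for chitin deacetylases, had 7.58, 6.10 and 8.83 RPM and 2.21, 1.87 and 2.41 RPM in Ey+ libraries. Their Grh+ libraries had 47.2, 57.0 and 49.7 RPM for verm and 12.4, 15.6 and 10.4 RPM for serp. The log2 fold changes were -2.48 ± 0.20 for verm (edgeR adjusted p = 0.00998) and -2.27 for serp. A further chitin deacetylase gene, Cda4, had 1.33, 0.738 and 1.43 RPM in Ey+ libraries against 15.5, 16 and 12 RPM in Grh+ libraries (log2 fold change -3.33 ± 0.36, edgeR adjusted p = 0.0125). ImpE2, an ecdysone-inducible gene, had 11.2, 12.2 and 14.3 RPM in Ey+ libraries against 113, 143 and 75.3 RPM in Grh+ libraries, and fell by 2.86 ± 0.25 on the log2 scale (edgeR adjusted p = 0.0113). dpy (2L, 4477462 to 4614300), which encodes a giant ZP protein of the apical matrix, had 12.3, 10.4 and 11.5 RPM in Ey+ libraries against 71.4, 68.1 and 49.7 RPM in Grh+ libraries (log2 fold change -2.17 ± 0.23). The chitin-binding gene obst-A and the ZP gene pio fell by 3.10 and 2.49 on the log2 scale.

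Over the whole chitin and apical matrix list, 17 of 18 members had a negative log2 fold change, and the median was -2.0 against -0.02 over all genes. This median lay between -2.27 and -1.62 under 17 alternative settings, and it was -1.88 without both libraries that stood apart. The summed level of the list was 76.1 to 129 RPM in Ey+ libraries and 355 to 539 RPM in Grh+ libraries. In 14 of the 18 members the libraries did not overlap on RPM, always with Ey+ INPs below (against 22.4% of all genes tested), and in 13 on TMM-scaled RPM (against 12.9%).

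In the Notch pathway, which INPs and their siblings use to take different fates, 3 of 24 members tested fell and none rose, against 1.12% of all genes tested that fell. The list entries Dl and Psn were not matched to a gene and were not assessed. Ser, which encodes the ligand Serrate, had 2.16, 1.48 and 2.69 RPM in Ey+ libraries against 13.6, 15.8 and 11 RPM in Grh+ libraries (log2 fold change -2.38 ± 0.31, edgeR adjusted p = 0.0221). fng, which encodes the glycosyltransferase Fringe that alters how Notch meets its ligands, had 3.91, 2.90 and 4.47 RPM against 19.0, 21.6 and 15.2 RPM in Grh+ libraries (log2 fold change -2.01 ± 0.27, edgeR adjusted p = 0.0239). fng shares 22 bases with CG10589 on the other strand. E(spl)m3-HLH, a bHLH target gene of Notch, had 2.30, 2.56 and 2.75 RPM in Ey+ libraries against 13, 21.2 and 9.02 RPM in Grh+ libraries (log2 fold change -2.23 ± 0.34, edgeR adjusted p = 0.0344). Of the 10 genes of the E(spl) complex tested, E(spl)m3-HLH alone passed the edgeR call, and DESeq2 without a prior also called E(spl)m2-BFM. In 9 of these 10 the libraries did not overlap, with Ey+ INPs below, on RPM (against 22.4% of all genes tested) and on TMM-scaled RPM (against 12.9%). The summed level of the complex was 86.0 to 116 RPM in Ey+ libraries against 196 to 237 RPM in Grh+ libraries. The median log2 fold change of the Notch list was -0.07, against -0.02 over all genes.

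The laminins LanA, LanB1 and LanB2 form the trimers of basement membranes, and all 3 fell, by 2.31, 1.65 and 1.96 on the log2 scale (edgeR adjusted p between 0.0279 and 0.0374). Of 4 laminin genes tested only these 3 were called, against 1.12% of all genes tested that fell. The family was chosen after values were seen. The 4 laminin genes tested summed to 13.2 to 23.6 RPM in Ey+ libraries against 71.2 to 95.8 RPM in Grh+ libraries. Ppn, which encodes the extracellular matrix protein papilin and was on the hemocyte list, had 1.47, 2.75 and 3.61 RPM against 24.3, 22.9 and 15.3 RPM in Grh+ libraries (log2 fold change -2.77). Of 25 septate junction and polarity genes, whose median log2 fold change was -0.18, Gli (gliotactin) alone was called by edgeR. It had 8.96, 7.67 and 8.88 RPM in Ey+ libraries against 31.0, 33.3 and 21.5 RPM in Grh+ libraries (log2 fold change -1.45, edgeR adjusted p = 0.0393). DESeq2 without a prior also called bark and crb lower and Fas3 higher, and called 301 of 15608 genes over all.

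Of 32 axon guidance genes, unc-5 (2R, 15340472 to 15368300), a netrin receptor, was the one called by edgeR. The list's median was 0.42, and between 0.14 and 0.63 under 17 alternative settings. Over all genes tested, 0.232% were called higher and 1.12% lower. At an unadjusted p under 0.05, 11 list members were higher and 3 lower, against 1531 of all 9475 genes tested. DESeq2 without a prior called unc-5 lower and Eph, Dscam4 and Toll-6 higher, among 301 of 15608 genes. unc-5 had 116, 115 and 103 RPM in Ey+ libraries against 298, 358 and 346 RPM in Grh+ libraries, and 657 RPM in D+ INPs on average. It fell by 1.28 ± 0.20 on the log2 scale (edgeR adjusted p = 0.0344), and it shares 227 bases with Pms2 on the other strand. lncRNA:CR34335 (X, 3545750 to 3546110), named for its mean RPM, had 132, 171 and 198 RPM in Ey+ libraries against 471, 451 and 483 RPM in Grh+ libraries (log2 fold change -1.23 ± 0.12, edgeR adjusted p = 0.0125).

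Of 15 genes of type II neuroblast and INP identity, erm (2L, 1950239 to 1970362), which encodes the zinc finger factor Earmuff that holds INPs to a restricted fate and whose enhancer drives the GAL4 line used here, was the one called. It had 43.1, 42.7 and 38.7 RPM in Ey+ libraries against 114, 96.7 and 116 RPM in Grh+ libraries, and 211 RPM in D+ INPs on average. erm fell by 1.09 ± 0.18 on the log2 scale (edgeR adjusted p = 0.04), and by 1.38 (edgeR adjusted p = 0.00836) without both libraries that stood apart. Its call was lost under 11 of 18 alternative settings, all with the same sign and with adjusted p between 0.00091 and 0.21. The neuroblast and INP marker dpn, named here as a check of the sorted cell type, had 258, 337 and 394 RPM in Ey+ libraries against 368, 393 and 362 RPM in Grh+ libraries. ase, another such marker, had 712, 811 and 755 RPM against 901, 1049 and 889 RPM in Grh+ libraries. Their log2 fold changes were 0.08 and -0.03, and neither passed the test. Other members of the list were less even. btd, Sp1, pnt, tll and fru had log2 fold changes between -2.01 and -1.16, and brat, klu, wor, numb and pros between 0.32 and 0.91, none called. On RPM, 7 of the 15 did not overlap with Ey+ INPs below, against 22.4% of all genes tested. On TMM-scaled RPM, 3 lay below, against 12.9% of all genes, and 2 above. Over all genes tested, 1.12% were called lower.

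Of 13 tested glia markers, gcm alone was called by edgeR, against 0.232% of all genes tested that were called higher. DESeq2 without a prior called gcm higher and wrapper lower, among 130 higher and 171 lower of 15608 genes. repo, which encodes the homeodomain factor of differentiated glia and is given here as a check, had 2.71, 3.69 and 4.53 RPM in Ey+ libraries and 6.1, 6.80 and 5.05 RPM in Grh+ libraries. The summed level of the glia list was 1356.5 to 1649 RPM in Ey+ libraries and 1789 to 2180 RPM in Grh+ libraries, and 10 of the 13 tested did not overlap with Ey+ INPs below, against 22.4% of all genes tested. On TMM-scaled RPM this was 7 of the 13, against 12.9% of all genes, and of the 10 genes nrv2 and drpr had log2 fold changes of 0.05 and 0.14. Their median log2 fold change was -0.43. Of 20 neuron markers, 0 were called by edgeR and 1 (elav) by DESeq2 without a prior. At an unadjusted p under 0.05, 3 of the 20 were higher and 1 lower, against 1531 of all 9475 genes tested. The summed level of the neuron markers was 5565, 1693 and 948 RPM in Ey+ libraries against 838, 1525 and 638 RPM in Grh+ libraries. Ey+ replicate 1 was far above the rest and Grh+ replicate 2 was highest in its state.

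The 2 neuron markers with the highest mean RPM had their highest value in the same libraries. elav, an RNA-binding protein of neurons, had 2704, 1144 and 649 RPM in Ey+ libraries against 434, 751 and 373 RPM in Grh+ libraries (log2 fold change 1.95 ± 0.66, edgeR adjusted p = 0.239), and shares 2994 exonic bases with lncRNA:enrr on the same strand. unc-13, a gene of synaptic vesicle release, had 1142, 228 and 113 RPM against 189, 244 and 112 RPM in Grh+ libraries (log2 fold change 1.93 ± 0.96, edgeR adjusted p = 0.381), and shares 3528 exonic bases with asRNA:CR43425 on the other strand. The median log2 fold change of the neuron markers was -0.08, but -0.86 without Ey+ replicate 1 and 1.09 without Grh+ replicate 2. Markers of fat body (2 of 7 tested), muscle (4 of 8 tested) and hemocytes (6 of 9 tested) summed to 22.5 to 87.2, 4.1 to 6.8 and 54.5 to 76.6 RPM in Ey+ libraries. In Grh+ libraries they summed to 45.5 to 80.5, 4.2 to 26.0 and 94.4 to 123 RPM. Their median log2 fold changes were 0.60, -1.10 and -1.16, and -0.09, 0.60 and -0.34 without both libraries that stood apart. The hemocyte sums came mostly from crq, at 50.4 to 60.3 RPM in Ey+ libraries and 62.6 to 75.2 RPM in Grh+ libraries. The hemocyte gene Hml had 0.735, 1.48 and 5.85 RPM in Ey+ libraries against 4.62, 15.1 and 1.14 RPM in Grh+ libraries (log2 fold change -1.22, edgeR adjusted p = 0.628), and Pxn, Col4a1 and vkg had log2 fold changes between -1.27 and -1.10 that did not pass the test. NimC1, He and srp were under 3 RPM in all libraries. The muscle myosin gene Mhc was at 0.0573 to 1.13 RPM in Ey+ libraries, against 8.24 RPM in Grh+ replicate 2 and 0.355 and 0.471 RPM in the other Grh+ libraries. The fat body gene apolpp was at 18.9 to 72.3 RPM in Ey+ libraries and 42.3 to 68.2 RPM in Grh+ libraries, and Lsp1gamma had 14.1 RPM in Ey+ replicate 1. The part of other cell types in the falls of the chitin, laminin and Notch genes was not tested.

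Of 18 genes of G1/S control, dap alone was called by edgeR, and of 28 DNA replication genes and 31 genes of the mitotic spindle and kinetochore, 0 were called. Over all genes tested, edgeR called 0.232% higher and 1.12% lower. At an unadjusted p under 0.05, 3 G1/S genes were higher, 1 replication gene was lower and 5 mitotic genes were higher. DESeq2 without a prior called dap and CycE higher, 0 replication genes and 3 mitotic genes. Over all genes, 1531 of 9475 had an unadjusted p under 0.05 with edgeR, and DESeq2 without a prior called 301 of 15608. The medians of the replication and mitotic lists were 0.02 and 0.07, against -0.02 over all genes. Of 13 apoptosis genes, the IAP antagonist gene skl was called, with 19.1, 20.6 and 21.0 RPM in Ey+ libraries against 68.3, 100.3 and 53.6 RPM in Grh+ libraries (log2 fold change -1.59, edgeR adjusted p = 0.0344). Of 13 glycolysis genes, 12 had a negative log2 fold change and Ald1, which encodes aldolase, was called. The list's median was -0.52, against -0.02 over all genes, and PyK, Pgk, Pgi and Pglym78 lay between -0.19 and -0.04. Ald1 had 12.6, 18.8 and 14.6 RPM in Ey+ libraries against 57.1, 45.7 and 34.8 RPM in Grh+ libraries (log2 fold change -1.31, edgeR adjusted p = 0.0369), with an adjusted p of 0.0619 without both libraries that stood apart and between 9.99e-05 and 0.141 over 18 alternative settings. It shares 338 bases with asRNA:CR44321 on the other strand.

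Of 21 genes of the ecdysone response and neuroblast timing, ImpE2 and ImpL2 fell, against 1.12% of all genes tested. ImpE2 is also counted in the chitin list above. ImpL2, which encodes a secreted insulin-binding protein, had 3.26, 7.03 and 7.34 RPM in Ey+ libraries against 15.3, 25.4 and 20.9 RPM in Grh+ libraries (log2 fold change -1.58, edgeR adjusted p = 0.0435). ImpL2 shares 1651 of its 2667 exonic bases with CG46460 on the same strand, and reads there cannot be assigned to either gene. Of 9 retinal determination genes tested, the network in which ey acts in the eye, 0 were called by edgeR and 1 (eya) by DESeq2 without a prior, the median was -1.21, and 5 did not overlap with Ey+ INPs below on RPM or on TMM-scaled RPM, against 22.4% and 12.9% of all genes tested. At an unadjusted p under 0.05, 2 of them were higher and 5 lower, against 1531 of all 9475 genes tested. Optix, another member, had 286, 399.5 and 436 RPM in Ey+ libraries against 272, 298 and 287 RPM in Grh+ libraries (log2 fold change 0.64 ± 0.11, edgeR adjusted p = 0.0463, under the fold threshold).

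**Figure D4:**
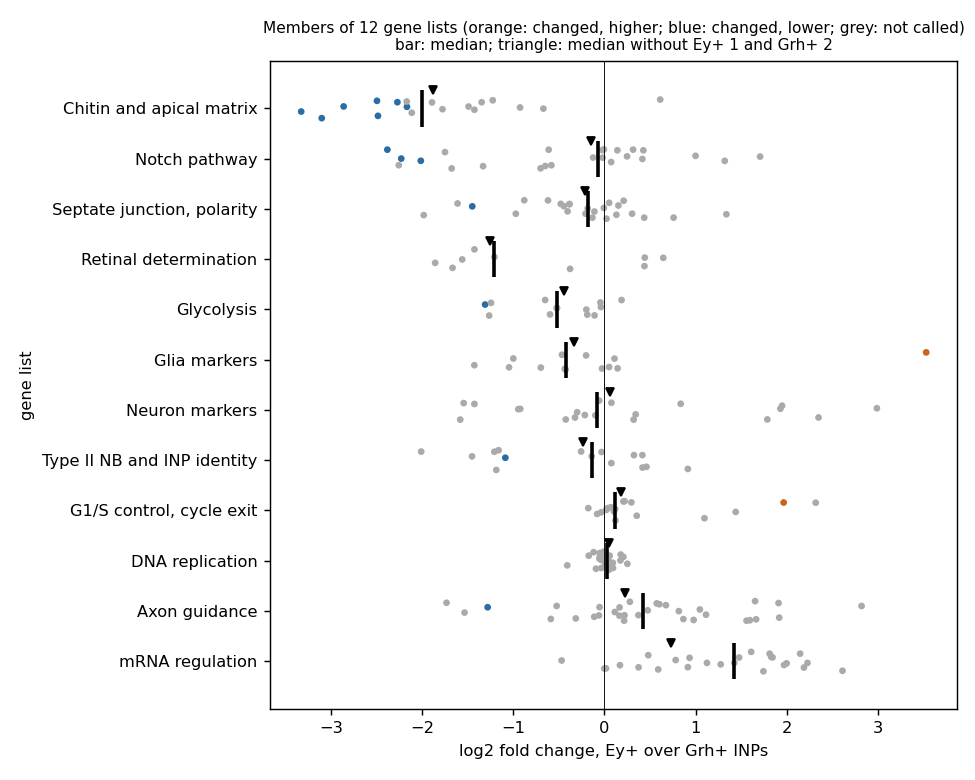
Log2 fold change, Ey+ over Grh+ INPs, of the tested members of 12 gene lists; orange points were called higher, blue points called lower and grey points not called, black bars are list medians and triangles the medians without Ey+ replicate 1 and Grh+ replicate 2. The chitin and apical matrix list lies furthest below 0 with a median of -2.0, and the median of the mRNA regulation list, 1.42, falls to 0.73 without these libraries.

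Genes far higher in Ey+ replicate 1 than in the other Ey+ libraries included several that act in neuroblasts, named here after their values were seen. lncRNA:cherub, a long noncoding RNA known from type II neuroblasts, had 95674, 7149 and 3262 RPM in Ey+ libraries against 4099.6, 15340 and 1550.0 RPM in Grh+ libraries. Syp, an RNA-binding protein of late neuroblasts, had 6914, 894 and 487 RPM against 534, 1092 and 313 RPM in Grh+ libraries. chinmo, a factor of early neuroblasts, had 1213, 143 and 75.8 RPM in Ey+ libraries against 61.6, 131 and 32.6 RPM in Grh+ libraries. In these genes replicate 1 was the highest Ey+ library and replicate 2 the highest Grh+ library. Their log2 fold changes of 2.88, 2.61 and 3.19 did not pass the test (edgeR adjusted p of 0.413, 0.335 and 0.286). Members of the type II neuroblast and INP identity list were split on RPM. Among Ey+ libraries, dpn, ase, wor, insc and mira were lowest in replicate 1, and the other members were highest there. The TMM factor of Ey+ replicate 1 was 0.738, so its RPM values lie below the levels that the fit compares. This split is given on RPM only and can differ on TMM-scaled RPM. wor had 442, 660 and 722 RPM and mira 999, 1525 and 1488 RPM in Ey+ libraries, while brat had 3495, 2246 and 1672 RPM.

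Of 25 genes of translation initiation and mRNA regulation, 23 had a positive log2 fold change, 15 with an unadjusted p under 0.05. Of the 25, 0 were called by edgeR but 9 by DESeq2 without a prior. Over all genes, 1531 of 9475 had an unadjusted p under 0.05 with edgeR, and DESeq2 without a prior called 301 of 15608. The median of the 25 genes was 1.42, against -0.02 over all genes. It was 0.60 without Ey+ replicate 1, 1.69 without Grh+ replicate 2 and 0.73 without both. In the tenth of genes with the longest exons, the median log2 deviation from the mean of the 6 libraries was 0.60, 0.10 and -0.42 in the Ey+ libraries and -0.22, -0.00 and -0.31 in the Grh+ libraries. Among 81 cytosolic ribosomal protein genes, 0 were called by edgeR or by DESeq2 and 1 had an unadjusted p under 0.05. Their summed level was 39895 RPM in Ey+ replicate 1, 67201 and 78146 RPM in the other Ey+ libraries and 80381 to 85656 RPM in Grh+ libraries.

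**Figure D5:**
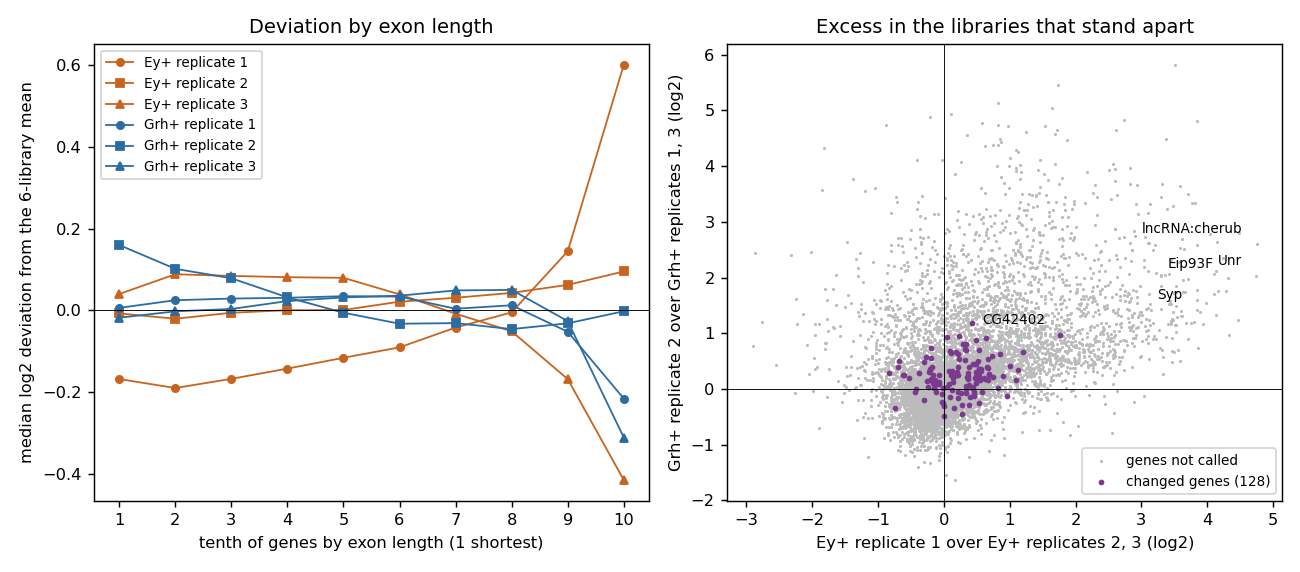
Left, median log2 deviation of each library from the mean of the 6 libraries against the tenth of genes by exon length; right, for each gene tested, the log2 excess of Ey+ replicate 1 over the other Ey+ libraries against that of Grh+ replicate 2 over the other Grh+ libraries. Ey+ replicate 1 reaches 0.60 in the tenth with the longest exons, and 626 genes exceed 2-fold in both libraries.

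Changed genes lay on all chromosome arms, with 2 to 7 higher and 13 to 32 lower genes among the 1573 to 2268 tested on each of 2L, 2R, 3L, 3R and X. Chromosome 4 had 2 changed genes, gw and Gat, both higher in Ey+ INPs. ey also lies on this chromosome. Over all genes tested, 0.232% were called higher and 1.12% lower. DESeq2 without a prior called 12 higher and 1 lower gene on chromosome 4, against 130 and 171 of all 15608 genes. On TMM-scaled RPM, 8 genes of chromosome 4 did not overlap with Ey+ INPs above and 3 with Ey+ INPs below. Over all 9475 genes tested these counts were 734 and 1223. Of 94 genes of chromosome 4 tested, 69 had a positive log2 fold change and the median was 0.54, against medians between -0.03 and 0.03 on the other arms. The summed level of the chromosome was 35705.6, 22847 and 17524 RPM in Ey+ libraries against 17366, 20625 and 16370.4 RPM in Grh+ libraries, highest in Ey+ replicate 1. The median was 0.53 without both libraries that stood apart and 0.56 with the length trend removed, but 0.11 without Ey+ replicate 1 alone and 1.15 without Grh+ replicate 2 alone.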

How the data were processed

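Per the labels, oligo-dT primed cDNA of sorted INPs was made into Nextera libraries with random octamers as molecular barcodes. The deposited values are counts of reads per gene, which the authors made with BWA 0.7.12 to remove ribosomal reads, TopHat 2.1.1 to align, bedtools 2.26.0 to mask small RNA genes and HTSeq 0.6.1 to count without strand, one file per library. Whether reads marked as duplicates were left out is not given in the sources used here. Besides 16364 genes, each file has 5 summary lines of reads not assigned to a gene, among them alignments that were not unique. These lines held 34.7% to 53.2% of the counts of these libraries (and of D+ libraries 36.3% to 41.2%) and were left out.

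Here RPM was computed from the counts on genes. The test was edgeR 4.0.16 (glmQLFit and glmQLFTest, with limma 3.58.1, R 4.3.3) with TMM scaling and filterByExpr on the 6 Ey+ and Grh+ libraries. The fit's common biological coefficient of variation was 0.340. The BDGP6.54 annotation gave symbols and positions for 16208 identifiers; it shares the Release 6 assembly with the gene models used for counting but is another release. The procedure was also run on simulated counts with the same dispersion for every gene. These had no library that stands apart and no exon length trend, so the run does not measure how reliable the calls here are.

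The genes named are D, grh, ey, opa, ham, osa, gcm and dap, then, among changed genes without overlap, the 12 largest changes each way and the 5 most abundant, and up to 4 changed members of each list described, or 2 abundant ones where none changed. All other genes named were chosen after their values were seen. Members and lists were chosen with earlier results of these data known. Of the list entries, 679 were matched to a gene and 17 were not.

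Alternatives were a model of all 9 libraries, scaling by upper quartile, by DESeq2 size factors or by library size only, filters of none or of 10 counts per library, DESeq2 1.42.0 (with or without a prior), the replicate block, no RPM threshold, removal of each library's exon length trend (loess, span 0.5), each library left out and both Ey+ replicate 1 and Grh+ replicate 2 left out. DESeq2 with its prior over 9 libraries, the overlap on TMM-scaled RPM and the overlap without these 2 libraries were added after seeing the data. No sequences are printed.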

Additional observations from a re-analysis of the deposited data

How the results depend on the processing

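The counts of changed genes depended on the model. Against 22 higher and 106 lower genes, the model over all 9 libraries called 7 and 17, DESeq2 without a prior 130 and 171, DESeq2 with its prior 119 and 162, and the same over 9 libraries, added after seeing the data, 63 and 109. Removing the exon length trend gave 58 higher genes, library size only 193 lower genes, no RPM threshold 185 lower genes, and Ey+ replicate 1 and Grh+ replicate 2 both left out 35 higher genes. Leaving out one library gave 0 to 24 higher and 0 to 113 lower genes. The replicate block left 4 higher and 4 lower genes. The deviations of same-numbered libraries correlated at -0.224, 0.0527 and 0.509, and not every library correlated best with its own number. Ey+ replicate 3 and Grh+ replicate 3 did. With 3 libraries per state, these values cannot tell whether same-numbered libraries shared a sort or batch. Genes without overlap numbered 4711 with the same 2 libraries left out, where only 2 libraries stand against 2. Of 40 named changed genes, 28 lost the call in the model over 9 libraries, whose common biological coefficient of variation was 0.477, and 33 lost it with the replicate block. All 128 changed genes kept their sign in every alternative, except that 1 was not fitted with at least 10 counts in every library. The log2 fold change of ham was -0.15 with library size only. The cause of these differences was not tested. With 3 libraries per state, no exact permutation p can be under 0.1.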

Other observations

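With Ey+ replicate 1 and Grh+ replicate 2 both left out, the common biological coefficient of variation was 0.148 and 63 further genes met the rule, 14 higher and 49 lower. These genes are named after their values were seen. CycE, which encodes the cyclin that partners CDK2 at the start of S phase, had 1449 and 1021 RPM in the 2 remaining Ey+ libraries against 606 and 517 RPM in the 2 remaining Grh+ libraries (log2 fold change 1.26, edgeR adjusted p = 0.0347). The adhesion gene Fas3 and the Toll receptor gene Toll-6 were higher by 1.2 and 1.67 on the log2 scale (edgeR adjusted p of 0.0197 and 0.00836). Sp1, which acts with btd in type II neuroblasts, and the retinal determination genes dac and eya were lower, with log2 fold changes of -2.06, -1.53 and -1.81. With all 6 libraries edgeR called none of these 6 genes, and CycE had a log2 fold change of 1.44 (edgeR adjusted p = 0.138). DESeq2 without a prior called CycE, Fas3, Toll-6 and eya with all 6 libraries.

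Of 12 genes of trachea and imaginal discs, a list chosen after values were seen, all had a negative log2 fold change. Of these, 8 did not overlap with Ey+ INPs below on RPM and 7 on TMM-scaled RPM (against 22.4% and 12.9% of all genes tested). Under the full rule 0 were called by edgeR, and DESeq2 without a prior called 1, Dll. At an unadjusted p under 0.05 there were 7, against 1531 of all 9475 genes tested. The median was -1.62. nub had 0.781, 0.640 and 0.344 RPM in Ey+ libraries against 7.01, 12.7 and 5.12 RPM in Grh+ libraries (log2 fold change -3.46 ± 0.55, adjusted p = 0.035) and stayed under 10 RPM in the mean of both states. Of genes that passed the adjusted p but not the fold threshold, the transcription factor gene TfAP-2 had 284, 351 and 352 RPM in Ey+ libraries against 720.3, 813 and 775 RPM in Grh+ libraries (log2 fold change -0.95 ± 0.12, adjusted p = 0.0217).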
